A study of Mus musculus with 6 samples.

Results

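The Elavl, Rbfox and Ptbp families and Msi1 encode RNA-binding proteins that set how transcripts are spliced, stabilised and translated as neural progenitors become neurons. Their 10 genes (Elavl1 to Elavl4, Rbfox1 to Rbfox3, Ptbp1, Ptbp2 and Msi1) were taken as every non-control probe whose transcript accession, without its version, belongs to one of these symbols in RefSeq. This gave 19 probes of the 55681 on the array, and 10 of the 19988 gene symbols named there. All 19 probes were well above background on all 6 arrays, so none passed a filter through 1 group alone.

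Elavl proteins bind uridine-rich and AU-rich stretches of transcripts. Elavl1 (HuR) is present in most cell types, whereas Elavl2 (HuB), Elavl3 (HuC) and Elavl4 (HuD) are neuronal. Rbfox proteins are splicing factors that act on exons with a nearby GCAUG element, and Rbfox3 is the antigen NeuN, used as a marker of neurons. Ptbp1 represses neuronal exons in progenitors, among them an exon whose skipping leads to loss of the Ptbp2 transcript, and its paralogue Ptbp2 takes its place as neurons form. Msi1 (Musashi) is a translational regulator used as a marker of neural stem and progenitor cells.

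The cells were prepared from C57BL/6J mouse embryos (dorsal telencephalon, which forms the cerebral cortex) at embryonic day 14.5. All embryos, and so both groups, were heterozygous for GFP knocked into the Tis21 locus, which is the gene Btg2; they came from homozygous Tis21-GFP males and wildtype C57BL/6 females. GFP from this locus marks progenitors that have switched to divisions that produce neurons. S-phase cells were sorted by DNA content with a vital dye and divided by GFP into a Tis21-GFP positive and a Tis21-GFP negative group, with 3 arrays each. Each replicate pooled 30 hemispheres of 15 embryos and about 200000 sorted cells, so the replicates are pools and not single animals. By its title, the study asks how S phase shortens when progenitors commit to making neurons. In such pools, fewer cells of a type and less RNA per cell cannot be told apart.

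The unit throughout is the scaled log2 signal, which is the log2 of the scanner's processed intensity minus that array's 75th percentile over all probes. A difference is always positive minus negative on this scale. "Called" means that limma's moderated test over 28928 probes, adjusted by Benjamini-Hochberg, gave p under 0.05. The 75th percentile lay between 212.7 and 340.7 intensity units over the arrays, and arrays correlated across 28908 probes at 0.981 to 0.992 within groups and 0.963 to 0.977 across groups. The check of the sort was Btg2 itself, which was higher in positive cells by 0.77 ± 0.18 (SE, n = 3 per group, limma adjusted p = 0.0258). That call was kept under 10 of 17 alternative settings and was lost without any 1 array other than positive replicate 1. Eomes, which marks intermediate progenitors and encodes the factor Tbr2, rose by 3.42 ± 0.25 (limma adjusted p = 0.000521). In the list for intermediate progenitors and neurogenic commitment, 14 of 15 genes were called higher, and Hes6, Eomes and Neurog2 had the smallest adjusted p. Of 18 radial glia genes 14 were called lower, with the smallest adjusted p for Slc1a3, Ptprz1 and Notch2. Summed over a list on the linear scale, the signal was 464 to 525 on positive against 80.8 to 115 on negative arrays for the former and 166 to 202 against 332 to 380 for the latter.

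The postmitotic neuron list bears most directly on these members, and it was split. Of its 22 genes, 7 were called higher and 8 lower. Nrp1 (2.29), Neurod6 (2.03) and Stmn4 (-1.45) had the smallest adjusted p. The summed linear level of the list was 266 to 326 over the positive arrays and 255 to 333 over the negative ones, so the groups overlapped. Of 5 tested Cajal-Retzius genes, Ebf2 (3.05) and Ebf3 (2.35) were called higher and none lower by limma. Reln went the other way without overlap (-1.38, limma adjusted p = 0.101, unadjusted p under 0.05) and was above background on 1 positive array. Trp73 (0.24) and Lhx1 (-0.22) were not called. The summed level was 2.54 to 4.64 against 0.763 to 1.17, with Ebf3 and Ebf2 the brightest of the list in positive cells. Among 11 tested interneuron genes 1 was called higher and 4 lower, Maf and Gad1 among them, with a summed level of 26.3 to 27.6 against 30.0 to 34.1. All 9 tested microglia genes were called lower, with the smallest adjusted p for Trem2, Aif1 and C1qb. All 8 mesenchymal genes were called lower as well, among them Col4a1 and, not above background on any positive array, Col3a1, Lum and Vtn. The summed levels were 3.91 to 7.35 against 12.9 to 17.0 for microglia and 0.646 to 0.95 against 5.74 to 10.8 for mesenchyme. Of 8 tested endothelial and pericyte genes 4 were called lower. Rgs5, Pdgfrb and Abcc9 had the smallest adjusted p, and none of them was above background on any positive array. The summed level was 9.55 to 10.6 against 8.26 to 9.45. Most of it came from Kdr, the brightest of the list (mean 3.24 in positive against 2.79 in negative cells). Kdr alone had a difference above 0 (0.45), was not called (limma adjusted p = 0.0837), and reached -0.57 under 1 alternative. The part of these other cells in the results below was not tested.

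Against this background 5 of the 10 genes (50.0%) were called, all of them higher in Tis21-GFP positive cells, while 20.4% of the 13140 named genes tested were called at all, 9.12% higher and 11.3% lower. The 5 genes were Elavl2, Elavl3, Elavl4, Rbfox3 and Ptbp2. No member was called lower by limma when each gene was read from its brightest probe (0 genes), although Rbfox1 had an unadjusted p under 0.05 and fell on the lower side. With the replicate number as a block, Rbfox1 was called lower (limma adjusted p = 0.0412). Over probes, 10 of 19 (52.6%) were called, all higher, against 16.5% of all probes tested (7.52% higher and 8.96% lower). For 14 of the 19 probes the 3 positive arrays did not overlap with the 3 negative arrays, 12 higher and 2 lower, against 40.6% of all probes (24.6% higher and 16.0% lower). The median difference was 0.56 over the 10 genes and 0.115 over all named genes tested.

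**Figure D1:**
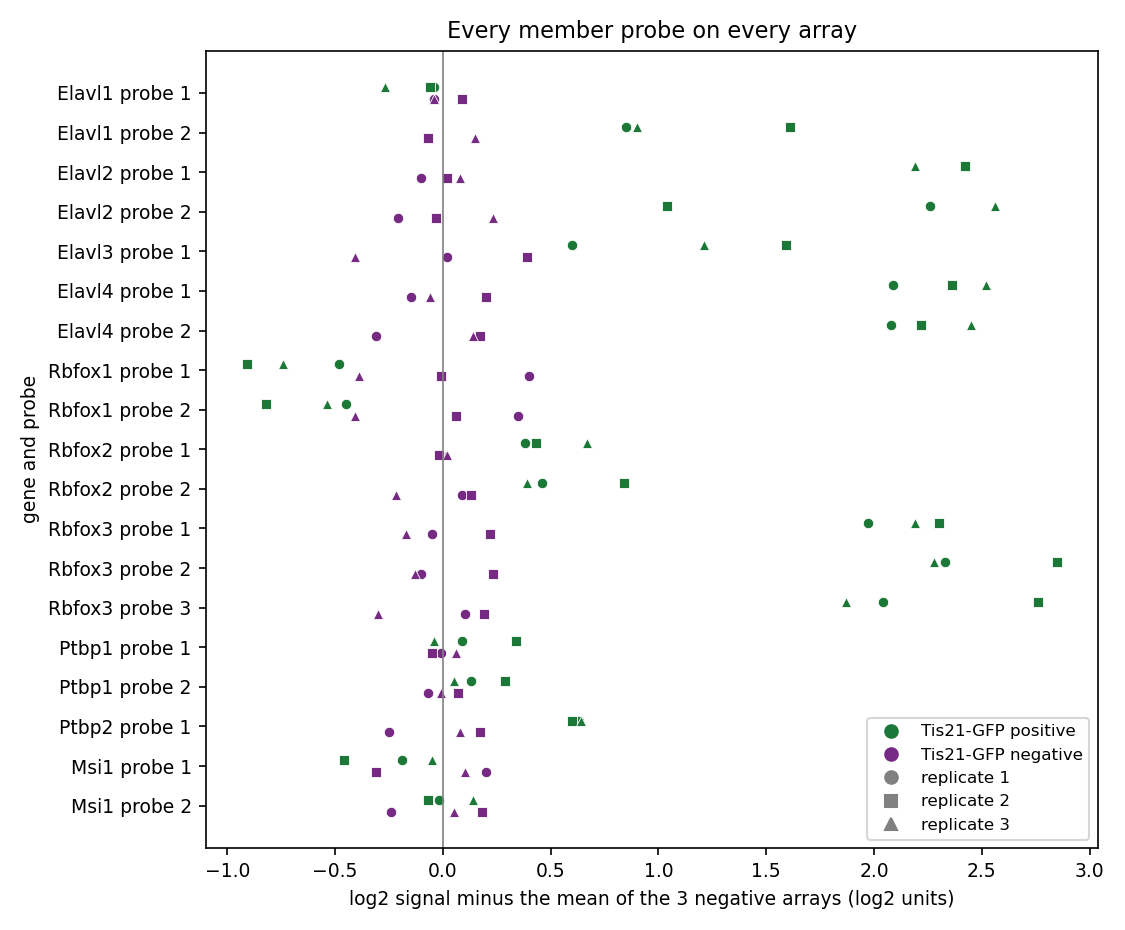
Scaled log2 signal of every member probe on each of the 6 arrays, given as the value minus the mean of the 3 Tis21-GFP negative arrays, so that 0 is the negative mean of that probe. The points of Elavl2, Elavl4 and Rbfox3 on the positive arrays lie far above their negative points, whereas those of Ptbp1 and Msi1 overlap with them.

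The members that separated the groups most are those whose upstream sequences are printed here, with Elavl3 beside them as the remaining neuronal Elavl gene. Each is the 250 bases before the most upstream start that the RefSeq table lists (assembly GRCm38.p6), read 5′ to 3′ on the gene's own strand. The capitals mark the E-box CANNTG, the element bound by proneural factors such as Neurog2, which reads the same on both strands. The Elavl2 window is chr4:91399985-91400234, minus strand. The Elavl4 window is chr4:110351912-110352161, minus strand. The Rbfox3 window is chr11:118761042-118761291, minus strand, and the Elavl3 window is chr9:22052024-22052273, also on the minus strand.
Elavl2: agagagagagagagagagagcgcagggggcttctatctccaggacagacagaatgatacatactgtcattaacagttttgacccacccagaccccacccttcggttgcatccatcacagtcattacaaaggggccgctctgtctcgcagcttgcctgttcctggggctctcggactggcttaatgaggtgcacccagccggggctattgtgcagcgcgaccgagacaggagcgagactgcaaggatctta
Elavl4: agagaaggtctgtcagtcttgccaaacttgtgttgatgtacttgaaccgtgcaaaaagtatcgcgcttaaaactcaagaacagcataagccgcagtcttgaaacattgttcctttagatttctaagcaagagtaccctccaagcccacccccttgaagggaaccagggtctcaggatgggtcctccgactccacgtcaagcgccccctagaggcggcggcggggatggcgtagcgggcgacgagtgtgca
Rbfox3: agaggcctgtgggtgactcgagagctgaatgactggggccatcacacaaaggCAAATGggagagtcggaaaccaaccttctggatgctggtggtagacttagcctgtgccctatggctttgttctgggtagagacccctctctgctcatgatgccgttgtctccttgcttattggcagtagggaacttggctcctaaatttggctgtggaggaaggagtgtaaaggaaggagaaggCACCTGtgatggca
Elavl3: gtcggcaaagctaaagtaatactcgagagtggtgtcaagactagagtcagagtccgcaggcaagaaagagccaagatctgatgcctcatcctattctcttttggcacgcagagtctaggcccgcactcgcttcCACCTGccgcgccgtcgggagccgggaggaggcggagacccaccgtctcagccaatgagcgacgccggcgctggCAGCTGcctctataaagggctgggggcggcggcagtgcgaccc
The windows of Elavl2 and Elavl4 held 0 E-boxes. The Rbfox3 window held 2, which began 198 and 14 bases before the start, and the Elavl3 window held 2, at 117 and 43 bases. Of 32851 windows of the same length in the table, 66.2% held at least 1 CANNTG, so its presence is the usual case. The E-box form CAGCTG, found in 13.0% of the windows, was the one at 43 bases in Elavl3. Among the 8 members with an entry, the Ptbp1 window held 2 E-boxes and the windows of Elavl1, Rbfox1 and Ptbp2 held 0. Elavl2 has 6 listed starts and Elavl4 has 4, of which these windows show only the most upstream. A match in letters is a description of the window and not a binding site.

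Elavl2 and Elavl4 rose together in Tis21-GFP positive cells, each about 5.0-fold, and Elavl3 rose by a smaller amount. Elavl2 read 4.24, 4.24 and 4.01 on the positive arrays 1 to 3 and 1.72, 1.84 and 1.90 on the negative arrays. All 3 positive arrays stood high and within a narrow band, and no negative array came near them. The difference was 2.34 ± 0.14 (SE, n = 3 per group, 95% interval 2.01 to 2.67, limma adjusted p = 0.000498), a 5.07-fold change and larger than that of 99.7% of all probes tested. In processed intensity the Elavl2 probe read 5883, 5535 and 3431 units on the positive arrays and 1089, 1222 and 1062 on the negative ones.

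The dimmer Elavl2 probe gave the same direction with more scatter. It read 2.36, 1.13 and 2.66 in positive and -0.11, 0.07 and 0.33 in negative cells. Positive replicate 2 was low beside the other positive arrays but still above every negative array. The difference was 1.96 ± 0.37 (limma adjusted p = 0.0122). It was no longer called without negative replicate 1 (1.85, limma adjusted p = 0.0629) or negative replicate 2 (1.94, limma adjusted p = 0.05).

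Elavl4, the HuD gene, read 4.06, 4.33 and 4.50 on the positive arrays and 1.83, 2.18 and 1.92 on the negative arrays. The groups were separated by a wide gap and each varied by little. The difference was 2.32 ± 0.17 (95% interval 1.92 to 2.72, limma adjusted p = 0.000524), a 5.00-fold change. Its other probe read 2.23, 2.38 and 2.60 against -0.15, 0.33 and 0.29 and differed by 2.25 ± 0.19 (limma adjusted p = 0.000642). Both probes of Elavl4 therefore gave the same size of change within their errors.

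Elavl3, the HuC gene, had 1 probe, which read 3.86, 4.86 and 4.48 in positive and 3.28, 3.66 and 2.86 in negative cells. The lowest positive array, replicate 1, lay only just above the highest negative array, replicate 2. The difference was 1.13 ± 0.30 (95% interval 0.45 to 1.82, limma adjusted p = 0.0385), a 2.19-fold change. This call was kept under 8 of 17 alternatives. It was lost without negative replicate 1 (limma adjusted p = 0.122), negative replicate 2 (0.0528), negative replicate 3 (0.128), positive replicate 2 (0.0874) or positive replicate 3 (0.0695), although the difference stayed between 0.90 and 1.40 over these and all other alternatives. It was also lost with quantile normalization (0.90), the authors' deposited values (0.90), a percentile from the probes above background on all 6 arrays (0.96), and no filter on dim probes (limma adjusted p = 0.114).

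Elavl1, the broadly expressed member, was read differently by its 2 probes. The brighter probe read 4.70, 4.68 and 4.47 in positive and 4.70, 4.83 and 4.70 in negative cells. The groups overlapped, and the difference was -0.12 ± 0.14 (95% interval -0.45 to 0.20, limma adjusted p = 0.567). The dimmer probe, assigned to the same transcript, read 2.84, 3.60 and 2.89 in positive and 1.92, 1.92 and 2.14 in negative cells. Here every positive array was higher, with replicate 2 the highest, and the difference was 1.12 ± 0.22 (limma adjusted p = 0.0151). That call was lost without negative replicate 1 (limma adjusted p = 0.0703) or negative replicate 2 (0.0586), and with no filter on dim probes (0.0561). When the 2 probes were averaged, Elavl1 was higher by 0.50 (limma adjusted p = 0.0461), so the direction for this gene depends on the probe. Within each array, the brighter minus the dimmer Elavl1 probe was 1.86, 1.08 and 1.58 in positive and 2.78, 2.91 and 2.56 in negative cells. The groups did not overlap, but an exact two-sided permutation test of 3 against 3 arrays cannot go below p = 0.1, which it reached (0.5 after adjustment over the 10 such pairs of probes). Where on the transcript each probe lies, and whether a probe also binds a paralogue, was not tested.

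**Figure D2:**
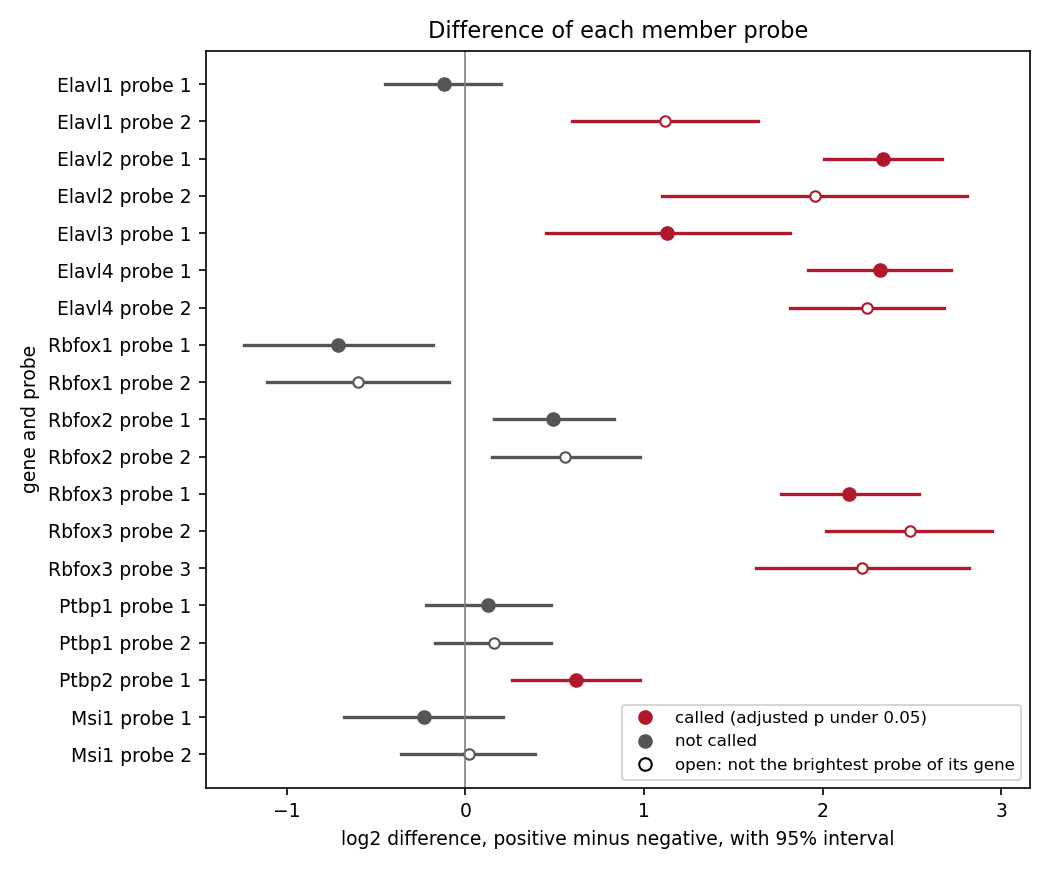
Log2 difference (positive minus negative cells) of each of the 19 member probes, with its 95% interval from limma. Probes of Elavl2, Elavl4 and Rbfox3 lie near or above 2, the 2 Elavl1 probes lie apart from each other, and the Rbfox1 probes are the ones with intervals wholly below 0.

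In the Rbfox family only Rbfox3 was called, on all 3 of its probes. The brightest read 4.98, 5.30 and 5.20 in positive and 2.96, 3.22 and 2.83 in negative cells. The positive arrays were all far above the negative ones. The difference was 2.15 ± 0.17 (95% interval 1.77 to 2.54, limma adjusted p = 0.000537), a 4.45-fold change. The second probe differed by 2.49 ± 0.20 (limma adjusted p = 0.00059), a 5.60-fold change. The third probe, designed for another RefSeq transcript of the gene, read 0.75, 1.46 and 0.58 against -1.19, -1.10 and -1.59 and differed by 2.22 ± 0.26 (limma adjusted p = 0.00166). Within each array, the brightest minus the second Rbfox3 probe shifted by -0.33 between groups without overlap (exact two-sided permutation p = 0.1, the smallest possible, and 0.5 adjusted over the 10 pairs of probes). None of these 3 probes lost its call under any alternative or without any 1 array. Rbfox3 thus moved with Neurod6 (2.03), Dcx (1.02) and Tubb3 (0.82) of the neuron list, while Mapt (-1.60), Stmn2 (-1.56) and Stmn4 (-1.45) of the same list went the other way. Dcx, Tubb3, Mapt and Stmn2 are set beside it here after their values were seen.

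Rbfox1, known for splicing of channel and synaptic transcripts in neurons, lay on the other side. Its brighter probe read 1.23, 0.80 and 0.97 in positive and 2.12, 1.70 and 1.32 in negative cells. Every positive array was below every negative array, the closest being positive replicate 1 and negative replicate 3. The difference was -0.71 ± 0.23 (95% interval -1.24 to -0.18), which did not pass the threshold (limma adjusted p = 0.0712). With the replicate number as a block it did (limma adjusted p = 0.0412), and it was called under 6 of 17 alternatives in all. The other probe read 0.16, -0.21 and 0.07 against 0.97, 0.67 and 0.20 and differed by -0.60 ± 0.22 (limma adjusted p = 0.101). Over all alternatives both Rbfox1 probes stayed below 0, at -0.91 to -0.51 for the brighter and -0.81 to -0.42 for the dimmer.

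Rbfox2, the more widely expressed paralogue, had values above those of the negative arrays on both probes without passing the threshold. The first probe read 2.46, 2.51 and 2.76 in positive and 2.08, 2.07 and 2.11 in negative cells, a difference of 0.49 ± 0.14 (95% interval 0.16 to 0.83, limma adjusted p = 0.0538). The second, designed for another transcript, read 1.78, 2.17 and 1.72 against 1.42, 1.46 and 1.11, a difference of 0.56 ± 0.18 (limma adjusted p = 0.0715). The groups did not overlap on either probe. With the replicate block the second probe was called (limma adjusted p = 0.0488), and over the alternatives the first was called in 5 of 17 and the second in 3 of 15.

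Ptbp1, the repressor of neuronal exons, gave no detectable difference between the sorted groups. Its brighter probe read 4.24, 4.49 and 4.11 in positive and 4.14, 4.10 and 4.21 in negative cells, with the groups overlapping. The difference was 0.13 ± 0.15 with a 95% interval of -0.22 to 0.48 (limma adjusted p = 0.574). The dimmer probe differed by 0.16 ± 0.14 with an interval of -0.17 to 0.48 (limma adjusted p = 0.456). For the brighter probe the interval leaves room for any difference from -0.22 to 0.48, and the sign of the difference turned under some scalings: -0.12 with quantile normalization, -0.13 with the authors' deposited values and -0.04 when the percentile came from the probes above background on all 6 arrays.

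Ptbp2 rose 1.54-fold in Tis21-GFP positive cells. Its probe read 3.08, 3.05 and 3.09 in positive and 2.20, 2.62 and 2.53 in negative cells. The positive arrays were nearly identical, and negative replicate 1 was the lowest of the negative arrays. The difference was 0.62 ± 0.16 (95% interval 0.26 to 0.98, limma adjusted p = 0.0341). The call was kept under 7 of 17 alternatives. It was lost with any 1 of the 6 arrays left out, where the difference stayed between 0.50 and 0.71, and with quantile normalization (0.43), the authors' deposited values (0.43) and the percentile from probes above background on all 6 arrays (0.45).

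Msi1, the progenitor marker, was not called on either probe. The brighter read 0.86, 0.59 and 1.01 in positive and 1.25, 0.75 and 1.16 in negative cells, a difference of -0.23 ± 0.19 with a 95% interval of -0.68 to 0.21 (limma adjusted p = 0.421). The dimmer differed by 0.02 ± 0.16 with an interval of -0.36 to 0.39 (limma adjusted p = 0.953). The groups overlapped on both. Its paralogue Msi2 had a difference of -0.46 ± 0.14, which did not pass the threshold (limma adjusted p = 0.067). Unlike Msi1, every positive array of Msi2 was below every negative array, and it was called under 7 of 17 alternatives.

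The paralogues could also be set against each other within each array, where the scaling of the array drops out. The value used is the difference between 2 probes on the same array, compared between groups, and not the level of 1 gene over another. For Elavl1 minus Elavl2 it was 0.46, 0.43 and 0.46 in positive and 2.97, 2.98 and 2.79 in negative cells, a shift of -2.47 between groups. For Rbfox1 minus Rbfox3 it was -3.75, -4.50 and -4.23 against -0.84, -1.53 and -1.51, a shift of -2.87 and the largest of the 10 pairs of paralogues. For Ptbp1 minus Ptbp2 it was 1.16, 1.44 and 1.02 against 1.93, 1.49 and 1.68, a shift of -0.49 in which positive replicate 2 and negative replicate 2 almost met. Elavl2 minus Elavl4 shifted by 0.02, with the groups overlapping (exact two-sided permutation p = 0.9). The other 9 of the 10 pairs did not overlap between groups. The share of such pairs over all genes was not computed, and 40.6% of all single probes did not overlap. Each shift follows from the 2 member differences given above, so the count adds no separate evidence. Each of the 9 pairs gave the smallest p that 3 against 3 arrays allow, 0.1 in the exact two-sided permutation test (0.111 after Benjamini-Hochberg adjustment over the 10 pairs). That test could therefore pass 0.05 for no pair, whatever the size of its shift. Elavl3 minus Elavl4 shifted by -1.19, Elavl1 minus Elavl3 by -1.26 and Rbfox2 minus Rbfox3 by -1.66. The Elavl1 pairs rest on its brighter probe (-0.12), and the dimmer one differed by 1.12, about as much as Elavl3 (1.13), so their size depends on the probe.

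**Figure D3:**
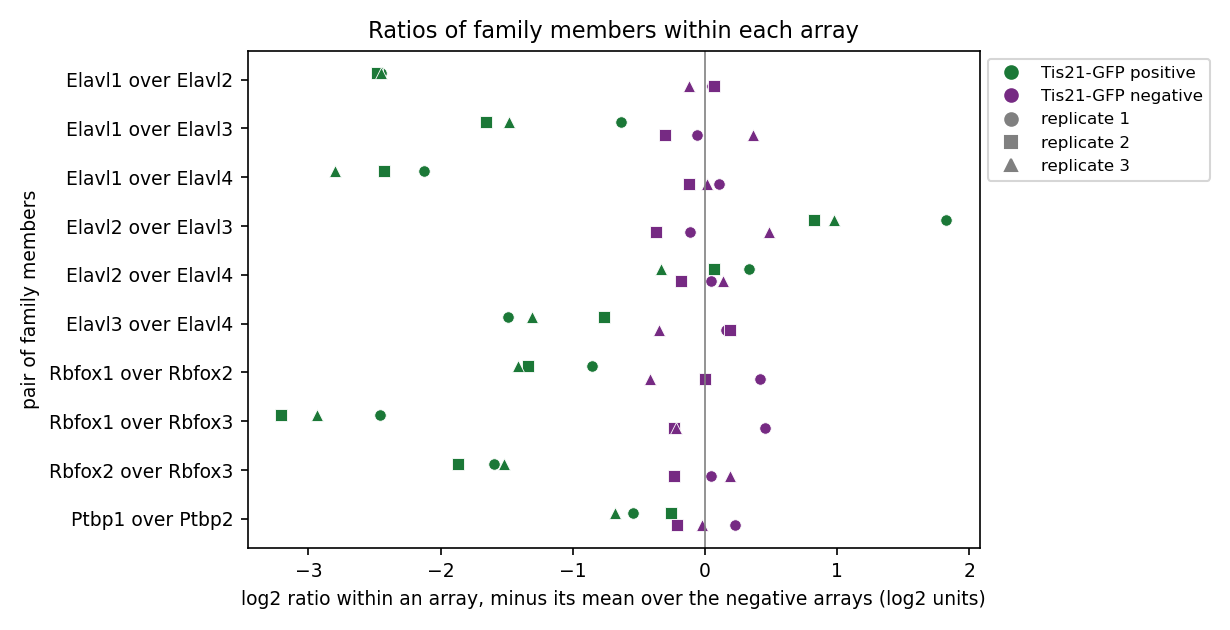
Within-array log2 ratio of the brightest probes of each pair of paralogues on the 6 arrays, given minus the mean of the 3 Tis21-GFP negative arrays. The ratio of Elavl2 to Elavl4 stays near 0 in both groups, and that of Rbfox1 to Rbfox3 shows the largest shift, -2.87.

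Other splicing regulators of neurons were divided. Of 24 tested genes of that list 3 were called higher and 4 lower, with a median difference of 0.15, near the 0.115 of all genes. Of all named genes tested, 9.12% were called higher and 11.3% lower. Whether this list or the 2 lists of RNA-binding proteins below depart from these shares was not tested. Over the alternatives the median was -0.03 to 0.33, with 1 to 5 genes called higher and 2 to 4 lower. The clearest rise was in Srrm4, the SR-related protein that includes neuronal microexons, which read 3.64, 3.65 and 3.49 in positive and 2.06, 1.73 and 1.48 in negative cells. Its groups were far apart, and the difference was 1.84 ± 0.18 (limma adjusted p = 0.000946), called under all 17 alternatives. The STAR-family splicing factor Khdrbs3 (0.62 ± 0.14, limma adjusted p = 0.0215) and the CELF-family member Celf6 (0.60 ± 0.16, limma adjusted p = 0.0388) also rose, the latter not with the replicate block (limma adjusted p = 0.0529).

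Qk, the quaking protein of progenitors and glia, fell most in that list. It read 2.67, 1.70 and 1.96 in positive and 3.77, 4.24 and 4.09 in negative cells, with no overlap. The difference was -1.93 ± 0.26 (limma adjusted p = 0.0031), and -0.99 when the gene's 4 probes were averaged. Raver2, a cofactor of the Ptbp proteins, read 0.81, 0.55 and 0.53 against 2.12, 1.87 and 1.91 and fell by 1.34 ± 0.15 on the log2 scale (limma adjusted p = 0.00161). Both were called under all 17 alternatives. The muscleblind-like protein Mbnl2 (-1.07 ± 0.27, limma adjusted p = 0.0333) and another CELF-family member, Celf5 (-0.64 ± 0.15, limma adjusted p = 0.0278) were lower as well. Ptbp3, the remaining Ptbp paralogue, gave -0.05 ± 0.19 and was not called (limma adjusted p = 0.867).

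Of 30 tested RNA-binding proteins of stability, transport and translation, 2 were called higher and 3 lower, with a median of 0.15. The median turned to -0.01 with quantile normalization and with the authors' deposited values and to -0.02 with the percentile from probes above background on all 6 arrays, and over all alternatives 0 to 4 genes were called higher and 3 to 4 lower. The 3 that fell are known to destabilise or silence transcripts. They were the AU-rich element binding proteins Zfp36l1 (-1.34 ± 0.13, limma adjusted p = 0.00104) and Zfp36l2 (-1.12 ± 0.15, limma adjusted p = 0.00285), and Samd4, or Smaug (-2.60 ± 0.27, limma adjusted p = 0.00116, and -2.81 to -1.79 over the alternatives). All 3 were called under all 17 alternatives. The 2 that rose were Fxr2, a paralogue of the fragile X protein (0.68 ± 0.14, limma adjusted p = 0.018), and the granule protein Caprin1 (0.60 ± 0.16, limma adjusted p = 0.0373). Qk, Raver2, Samd4, Zfp36l1 and Zfp36l2 moved with the radial glia, microglia and mesenchymal lists, all lower in positive cells, and the part of those lists in their difference was not tested.

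The general splicing machinery gave few calls. Of 36 SR, hnRNP and core splicing genes 2 were called higher, among them Nono (0.71 ± 0.14, limma adjusted p = 0.0132), and limma called 0 lower, also at an unadjusted p under 0.05. Their median was 0.30. The groups did not overlap for 18 of them, all higher, against 24.6% of all probes on that side. At an unadjusted p under 0.05 limma gave 10 of the 36 higher, and all 36 differences were above 0. The scaling bears on this: the median was between 0.06 and 0.49 over the alternatives, and the number called higher between 0 and 7. With quantile normalization 26 of the 36 differences were above 0. With the replicate block 1 of the 36 was called higher.

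The calls of Celf5, Celf6, Khdrbs3, Mbnl2, Fxr2, Caprin1 and Nono were lost in some or all fits that left out 1 array. All 7 were lost without negative replicate 1 and all 7 without negative replicate 3. All but Nono were lost without negative replicate 2, all but Fxr2 and Nono without positive replicate 1, and 3 (Celf5, Mbnl2 and Caprin1) without positive replicate 2. Without positive replicate 3, Celf5 and Celf6 were lost. All 7 differences kept their sign under every alternative. Over all probes, 737 were called higher without negative replicate 1 and 783 without negative replicate 3, against 2174 as reported. Fits with fewer arrays thus called fewer probes higher, and a lost call does not single out the array left out.

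**Figure D4:**
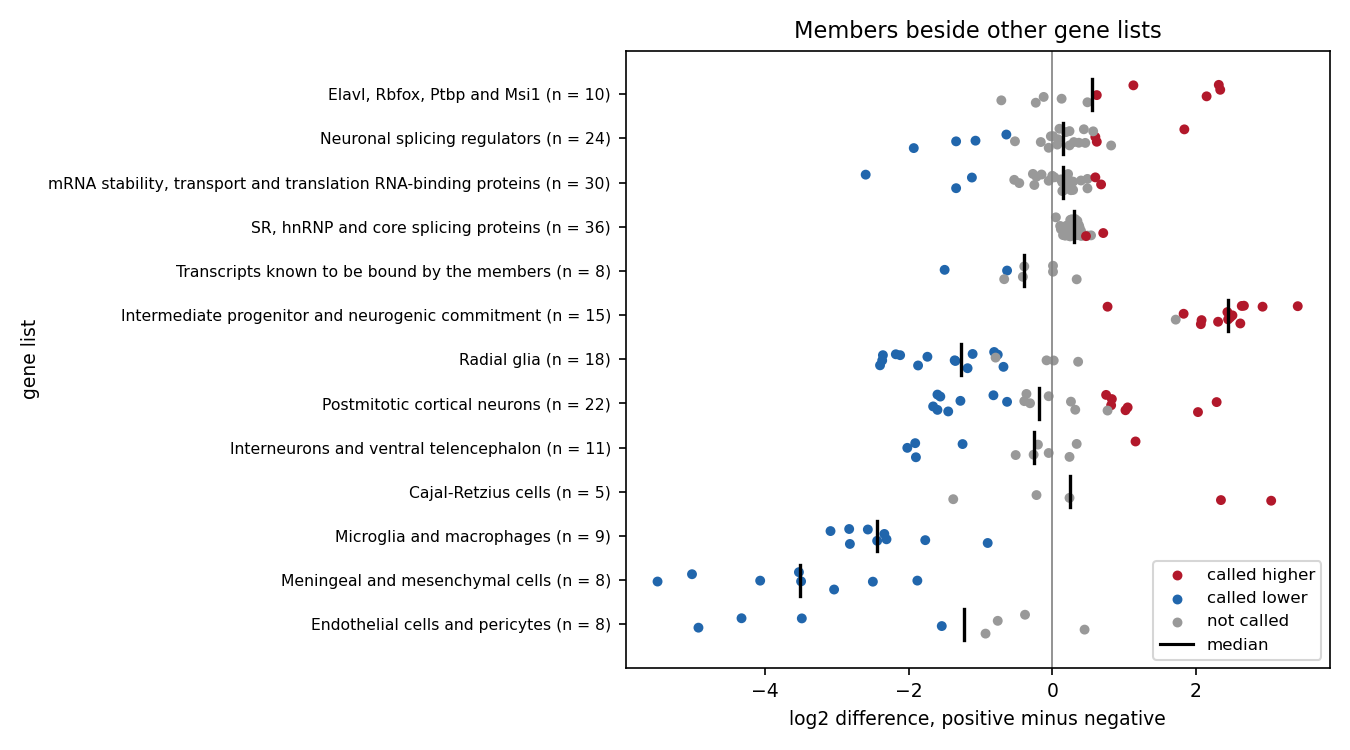
Log2 differences (positive minus negative cells) of the 10 members in the top row and of the tested genes in each of the 12 lists below, coloured by call, with the row's median as a black bar. Lists of RNA-binding proteins have medians between 0.15 and 0.30, whereas the intermediate progenitor list (2.45) and the mesenchymal list (-3.51, or -3.27 with genes not above background in positive cells at their bound) lie far to either side.

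Finally, 8 transcripts known to be bound or spliced by the members were read. The limma fit called 0 of them higher, also at an unadjusted p under 0.05, and 2 lower, and their median was -0.40. Of all named genes tested, 9.12% were called higher and 11.3% lower. Nin, a centrosomal transcript whose splicing responds to Rbfox proteins, read -0.14, -0.76 and -0.65 in positive and 1.35, 0.74 and 0.87 in negative cells. It fell by 1.50 ± 0.23 on the log2 scale (limma adjusted p = 0.00495) under all 17 alternatives. Gap43, a growth cone transcript stabilised by Elavl4, read 3.51, 3.61 and 3.24 against 4.33, 4.03 and 3.90. Its difference of -0.63 ± 0.18 (limma adjusted p = 0.0481) ran opposite to that of Elavl4, and its call was lost without any 1 of the 6 arrays. Numb (-0.41 ± 0.17), a transcript repressed by Msi1, and Cdkn1a (-0.67 ± 0.28) were not called, with limma adjusted p = 0.137 and 0.136. Dlg4 (-0.39 ± 0.33), an exon of which Ptbp proteins repress, was not called either (limma adjusted p = 0.434), nor was Flna (0.01 ± 0.13, limma adjusted p = 0.977), which has an exon under Ptbp control. These probes read 1 level per gene, so exon choice was not measured.

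The named genes whose 6 values were most like those of a member are given by Pearson correlation over the 6 arrays, which fall into the 2 sorted groups, so r mainly reflects the separation of the groups. For Elavl2 they were Sox11 (r = 0.9992), Serinc5 (0.9991) and Rb1 (0.9988). For Elavl4 they were Tnk2, Cul1 and Abca7, each at r = 0.9981. For Rbfox3 they were Orc6 (0.9989), Fzd1 (0.9988) and Rftn2 (0.9982). The slopes differed, since Sox11 differed by 1.16 and Orc6 by 0.57 where Elavl2 differed by 2.34 and Rbfox3 by 2.15. For Ptbp1, whose groups overlapped, they were Rab28 (0.9961), Dtx3 (0.9959) and Cpsf7 (0.99), none of them called.

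**Figure D5:**
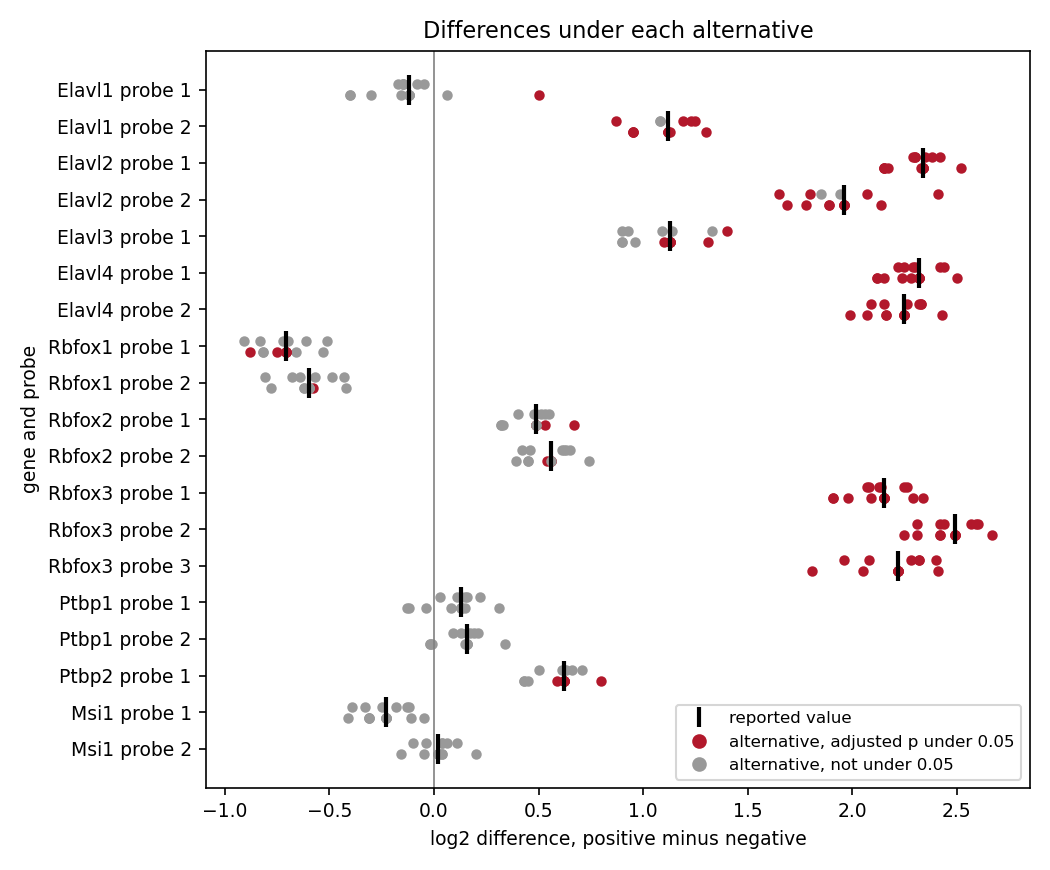
Difference of each member probe under the reported setting and under every alternative, in log2 units, with the settings that leave out 1 array in the upper row of dots and the other alternatives in the lower row. Elavl2, Elavl4 and Rbfox3 stay at 1.65 or above on all their probes, while the dots of Ptbp1 and of the dimmer Msi1 probe fall on both sides of 0.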

How the data were processed

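The deposited scanner files hold the processed intensity of each spot, which Agilent Feature Extraction (version 10.7.1.1, per the file headers) had corrected for background, on 6 arrays of 1 slide and 1 scan. A deposited table of the authors' log2 values, made by steps not given in the sources used here, was an alternative; its columns correlated with the scanner values of the same array at 0.99948 or above and each had a median of 4.661, as quantile normalization without centring would give. The deposited marks for control, outlier, saturation and well above background were used as given. Of 62976 spots, 59305 were not controls; 118 to 191 per array were dropped as outliers and 0 were saturated.

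Spots of a probe were averaged as log2 values, and the array's 75th percentile was subtracted. A probe was kept if all 3 arrays of either group had it well above background (28928 of 55681). The groups were fitted with limma 3.58.1 in R 4.3.3 (lmFit, eBayes, group only) and adjusted over all kept probes; the fit was tested on simulated data. A gene is read from its probe with the highest mean. Of all probes 4766 were called, 2174 higher and 2592 lower, and the median difference was 0.087. The number of arrays limits the precision. The labels do not say which litters each replicate drew on beyond pools from several pregnant mice, and the submitters used 3 of 4 experiments by an unstated rule (not given in the sources used here). No 2 arrays held identical values (0 pairs).

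The members, the 12 gene lists and the naming rule were chosen with earlier results of these data known. The rule named every member probe, up to 4 called genes per direction of each RNA-binding list, all bound transcripts, up to 3 called genes of each cell type list, Btg2 and Eomes, and the 3 genes most correlated with each of 4 members. Some genes that this rule took are not reported here. Replicate numbers are shared between the groups in the labels: deviations from the group means correlated at 0.167, 0.122 and 0.351 between same-numbered arrays, so the numbers were taken as pairs and a block was fitted as an alternative. Other alternatives were quantile normalization, median centring, another percentile, normexp (offset 50), the authors' values, no filter, 1 probe or the mean of probes per gene, a variance trend, the slide row as a block, and each array left out. The alternatives are not independent of each other, so their counts are descriptions. The authors' values gave nearly the same differences as quantile normalization. For a gene with 1 probe, the 2 settings per gene give the same difference.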

Additional observations from a re-analysis of the deposited data

How the results depend on the processing

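All probes of Elavl2, Elavl4 and Rbfox3 were higher under every alternative run, and all but the dimmer Elavl2 probe were called in each. The count of member genes called higher, 5 as reported, was 3 with quantile normalization, the authors' values, no filter, and a percentile from only the probes above background on all 6 arrays, and 3 to 4 with 1 array left out. It was 6 with median centring, normexp, 1 probe per gene and the variance trend, and 7 when all probes of each gene were averaged. Rbfox1 made the count called lower 1 in place of 0 with that percentile, normexp, 1 probe per gene, the variance trend, and the replicate or slide row block (0 to 0 with 1 array left out). The sign turned for the brighter Elavl1 probe with median centring (0.06) and for the mean of its probes (0.50). It turned for Ptbp1 with quantile normalization, that percentile and the authors' values (-0.12, -0.04 and -0.13, and for its dimmer probe -0.01, -0.02 and -0.02). It turned for the dimmer Msi1 probe with that percentile (-0.16), with normexp (-0.05), and without negative replicate 1 (-0.10) or positive replicate 3 (-0.04), in a range of -0.10 to 0.11 with 1 array left out. Over all probes, 2174 were called higher as reported, 3632 with median centring, 1092 with that percentile, 751 without a filter and 3424 with the variance trend, and 737 to 1979 with 1 array left out. Those called lower, 2592 as reported, were 1518 without a filter, 1716 with 1 probe per gene (fewer features tested) and 1350 to 2772 with 1 array left out. The share of calls that were higher was 45.6%, and 65.2%, 24.8%, 56.2% and 33.1% with median centring, that percentile, normexp and no filter. These moved the median of all probes to 0.268 and -0.087 for median centring and that percentile. The replicate block gave 2271 probes higher and 2994 lower; beside the calls of the brighter Rbfox1 probe, the dimmer Rbfox2 probe and Celf6 it changed no call of a member or of a gene named from the RNA-binding lists. The cause of these shifts was not tested. The planned normexp on the mean spot signal was not run, and the median spot signal was used in its place, a choice made after seeing the data.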
